A study of Mus musculus with 2 samples.

Results

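The genes described here are the mouse protein-coding genes whose symbol starts with Ube, taken from the RefSeq gene table of mm10 (GRCm38.p6). There were 42 of them among 21887 protein-coding genes on the assembled chromosomes. The genes to describe were chosen by symbol and selected on the peak calls and folds of these same libraries. A Ube gene was taken as occupied by DPPA2 in a library when the summit of a deposited peak lay inside it or within 1 kb of either end. Of the 42 genes, 36 encode E2 enzymes or E2 variants and 6 encode E3 ligases. No E1 gene carries the prefix, since mouse E1 genes are named Uba and otherwise.

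DPPA2 binds DNA in pluripotent cells and the germline. Its binding was mapped by ChIP-seq, the sequencing of DNA pulled down with an antibody, in mouse embryonic stem cells of the R1/E line. One library came from cells given adriamycin (doxorubicin, which traps topoisomerase on DNA and breaks it) for 8 h, and 1 from untreated cells. Both were wild type for p53 according to the design text, were grown on gelatin with leukemia inhibitory factor and carried the same batch entry. R1/E is a single cell line, neither group had a replicate, and each difference given here is therefore one between 2 libraries. The stated aim was to find the binding sites of DPPA2 after DNA damage.

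Ubiquitin reaches a protein through a relay. An E1 enzyme activates ubiquitin, an E2 (the UBE2 proteins) takes it over on a cysteine, and an E3 brings the loaded E2 to the substrate or, in the HECT class, carries ubiquitin itself. Chains of different linkage send proteins to the proteasome, build signalling platforms or mark damaged chromatin, and p53 itself is kept low by ubiquitination. DPPA2 and its partner DPPA4 are known to sit at CpG-rich promoters of embryonic stem cells.

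The promoters that carry the finding are shown as RefSeq gives them for GRCm38.p6, from 250 bases before to 50 bases after a listed start, 5′ to 3′ on the strand of the gene, with each CpG in capitals. Ube2r2 is shown because both libraries had a summit within its window. Ube2d1, Ube2e1 and Ube2n are other promoters whose gene starts had a summit in both libraries. Ube2ql1 had one in the untreated library alone, and Ube3c, an E3 gene, in the adriamycin library alone, where its peak lies beyond the window shown. Ube2dnl2, with the fewest CpGs of the family, had none.
Ube2r2, chr4:41135771-41136070, plus strand: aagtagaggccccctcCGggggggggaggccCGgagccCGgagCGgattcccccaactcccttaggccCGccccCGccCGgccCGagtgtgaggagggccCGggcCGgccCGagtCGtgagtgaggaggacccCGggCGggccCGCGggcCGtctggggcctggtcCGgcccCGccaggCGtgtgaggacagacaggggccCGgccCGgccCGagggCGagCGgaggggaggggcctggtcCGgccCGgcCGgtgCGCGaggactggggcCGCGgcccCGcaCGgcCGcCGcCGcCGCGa
Ube2d1, chr10:71285213-71285512, minus strand: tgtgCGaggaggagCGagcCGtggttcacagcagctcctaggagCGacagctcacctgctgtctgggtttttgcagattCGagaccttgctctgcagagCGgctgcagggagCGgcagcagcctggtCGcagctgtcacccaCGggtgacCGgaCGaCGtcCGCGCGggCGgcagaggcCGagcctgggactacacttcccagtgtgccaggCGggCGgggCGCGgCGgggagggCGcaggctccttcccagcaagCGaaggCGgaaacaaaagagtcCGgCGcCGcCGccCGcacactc
Ube2e1, chr14:18331795-18332094, minus strand: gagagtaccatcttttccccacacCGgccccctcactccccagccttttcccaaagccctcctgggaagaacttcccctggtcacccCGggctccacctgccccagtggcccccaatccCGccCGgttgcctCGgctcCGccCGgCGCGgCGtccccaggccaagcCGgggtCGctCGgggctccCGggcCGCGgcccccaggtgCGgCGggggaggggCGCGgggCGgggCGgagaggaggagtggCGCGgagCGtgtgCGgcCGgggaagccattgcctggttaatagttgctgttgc
Ube2n, chr10:95514912-95515211, plus strand: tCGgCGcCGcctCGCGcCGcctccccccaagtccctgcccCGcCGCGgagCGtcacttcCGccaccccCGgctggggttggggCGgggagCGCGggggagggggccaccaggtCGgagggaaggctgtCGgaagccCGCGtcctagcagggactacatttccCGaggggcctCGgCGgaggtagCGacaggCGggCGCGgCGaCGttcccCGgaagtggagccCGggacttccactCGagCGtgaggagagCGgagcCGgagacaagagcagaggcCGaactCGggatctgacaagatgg
Ube2ql1, chr13:69739848-69740147, minus strand: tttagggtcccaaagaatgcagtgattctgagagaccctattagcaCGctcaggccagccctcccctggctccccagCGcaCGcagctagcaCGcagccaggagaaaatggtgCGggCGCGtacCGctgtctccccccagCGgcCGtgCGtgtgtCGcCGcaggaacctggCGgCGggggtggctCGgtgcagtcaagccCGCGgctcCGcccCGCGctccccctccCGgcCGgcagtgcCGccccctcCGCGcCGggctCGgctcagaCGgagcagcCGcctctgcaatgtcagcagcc
Ube3c, chr5:29568992-29569291, plus strand: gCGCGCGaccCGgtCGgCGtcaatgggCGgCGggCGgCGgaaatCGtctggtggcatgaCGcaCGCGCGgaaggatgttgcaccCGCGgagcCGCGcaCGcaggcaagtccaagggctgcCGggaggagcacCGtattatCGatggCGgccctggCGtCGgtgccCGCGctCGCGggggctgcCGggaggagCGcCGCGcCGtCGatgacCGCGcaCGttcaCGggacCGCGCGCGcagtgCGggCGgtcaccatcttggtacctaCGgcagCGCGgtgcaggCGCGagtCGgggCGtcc
Ube2dnl2, chrX:114907332-114907631, plus strand: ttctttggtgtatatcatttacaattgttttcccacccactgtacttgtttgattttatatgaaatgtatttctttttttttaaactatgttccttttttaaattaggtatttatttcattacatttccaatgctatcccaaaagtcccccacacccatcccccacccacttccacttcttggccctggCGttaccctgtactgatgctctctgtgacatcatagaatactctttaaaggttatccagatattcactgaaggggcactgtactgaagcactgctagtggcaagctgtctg
The Ube2r2 window holds 39 CpGs, the Ube2d1 window 30, Ube2e1 27, Ube2n 36, Ube2ql1 30 and Ube3c 53, whereas the Ube2dnl2 window holds 1. Other Ube promoters without an end summit hold up to 44 (Ube2q1). The window of Ube2h, with a start summit in both libraries, holds 21.

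As deposited, the 2 peak lists had most of their Ube gene ends in common. In the adriamycin list 11 of 42 Ube genes had a summit within 1 kb of an end (26.2%, beside 16.0% of all protein-coding genes), and in the untreated list 10 of 42 did (23.8%, beside 5.78%). Both lists shared 8 of these genes, Ube2d1, Ube2e1, Ube2h, Ube2j1, Ube2n, Ube2q2, Ube2r2 and Ube2w, which is 19.0% of the family beside 4.51% of all genes. Ube2g1, Ube2v2 and Ube3c had an end summit in the adriamycin list alone (3 of 42, 7.14%, beside 11.5%). Ube2m and Ube2ql1 had one in the untreated list alone (2 of 42, 4.76%, beside 1.27%). Presence of a peak was part of how the genes were chosen, so these shares are a description and carry no test.

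The overlap can be given as a share of each list. Of the 10 Ube genes with an untreated end summit, 8 also had one with adriamycin (80.0%, beside 78.0% of the 1266 genes with an untreated end summit). Of the 11 with an adriamycin end summit, 8 also had one in the untreated list (72.7%, beside 28.1% of 3510 genes). The lists differ in length, with 16229 adriamycin peaks and 7043 untreated peaks on these chromosomes. The overlap at Ube genes became smaller when weaker peaks were left out. With the adriamycin list cut to its 7043 peaks of lowest q and the untreated list left whole, 2 Ube genes had an end summit in both. A further 1 had one in the adriamycin list alone and 8 in the untreated list alone. This cut ranks peaks by q, whereas the strongest percentages given for single peaks rank them by fold. At a fold of at least 5, or at a q of at most 1e-05, 2 genes were in both lists. The share of all genes in both lists or in a single list alone was not computed at these cuts. Whether the smaller overlap is particular to Ube genes was not tested.

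Counting summits further inside the gene as well, 15 of 42 Ube genes had one in the adriamycin list (35.7%, beside 30.2% of all genes) and 12 of 42 in the untreated list (28.6%, beside 13.2%). In both lists were 9 genes (21.4%, beside 11.6%), in the adriamycin list alone 6 (14.3%, beside 18.7%) and in the untreated list alone 3 (7.14%, beside 1.66%). The other 24 genes had no summit in either list. A summit inside a gene is more frequent in long genes, and so is one at an end. Among genes of over 30 and up to 100 kb, where 21 Ube genes fall, 12 had a summit at an end or inside in the adriamycin list, beside 43.8% of all genes of that length, and 10 in the untreated list, beside 19.4%. Of the 7 Ube genes of up to 10 kb, 0 had one with adriamycin (beside 12.1%) and 1, Ube2m, had one untreated (beside 4.39%). Of the 11 of over 10 and up to 30 kb, 2 had one with adriamycin (beside 26.9%) and 1 untreated (beside 10.0%). Of the 3 of over 100 kb, 1 had one with adriamycin (beside 70.0%) and 0 untreated (beside 37.9%). Counting ends alone, 9 of the 21 Ube genes of over 30 and up to 100 kb had a summit with adriamycin. The share over all genes of that length was 22.6%. Untreated, 8 of the 21 had an end summit, beside 8.37%.

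**Figure D1:**
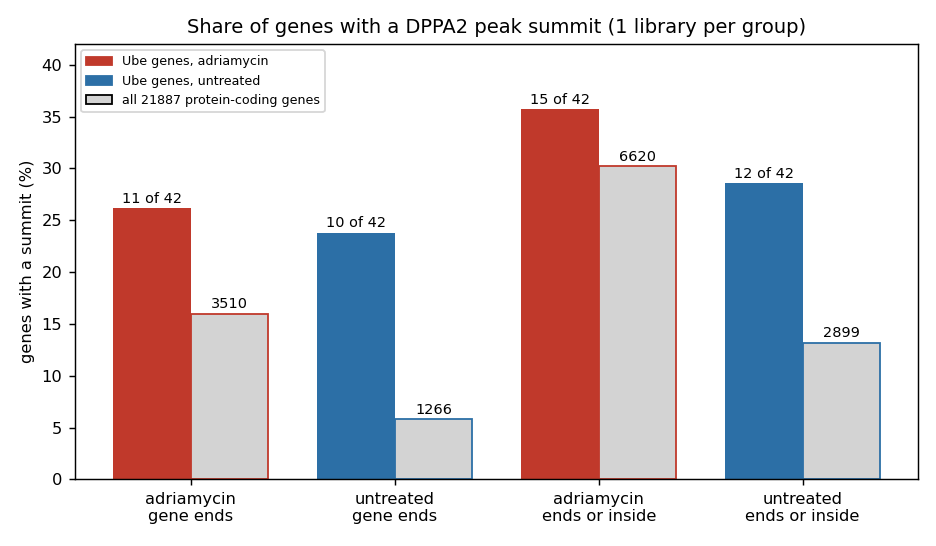
Share of genes, in percent, with a DPPA2 peak summit within 1 kb of a gene end (left pairs) and at an end or inside (right pairs), for the 42 Ube genes (filled bars, with the count of genes) and all 21887 protein-coding genes (grey bars, with the count), 1 library per group. The Ube bars stand at 26.2% with adriamycin and 23.8% untreated for gene ends, beside 16.0% and 5.78% for all genes.

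The 1 kb limit separated few genes. Just inside it were Ube2g1, whose adriamycin summit lay 812 bp from its start, and Ube2w, whose summits lay 574 bp (adriamycin) and 515 bp (untreated) from its higher-coordinate end. Just outside it, yet inside the gene, were Ube4b at 1282 bp from an end (adriamycin) and Ube2e3 at 1308 bp (untreated). Ube2cbp, which RefSeq also lists as Ube3d, had its nearest adriamycin summit 2496 bp from an end and outside the gene, and was not counted.

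The strand of 35 Ube genes is given by the RefSeq promoter table, and for these every end summit lay at the start of the gene. This was the case for 9 genes with adriamycin and 9 untreated (25.7% of 35 in each, beside 14.0% and 5.04% of 17492 genes with a strand). At the far end there were 0 in both lists, beside 2.24% of these genes with adriamycin and 0.938% untreated. Summits sat downstream of the start in 8 of 9 cases in each list, at a median of 212 bp with adriamycin and 268 bp untreated. Over all genes with a strand, 83.9% of start summits with adriamycin and 84.9% untreated lay downstream, at medians of 244 and 277 bp. Ube2r2 was the exception in both libraries, with its summit 186 bp upstream of the start with adriamycin and 49 bp upstream untreated.

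No Ube summit lay within 1 kb of an end of another protein-coding gene. Noncoding genes lay that near to the summits of Ube2j1 and Ube2h in both lists, and to the adriamycin summits of Ube2n (Gm46239) and Ube2g1 (Gm51906).

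**Figure D2:**
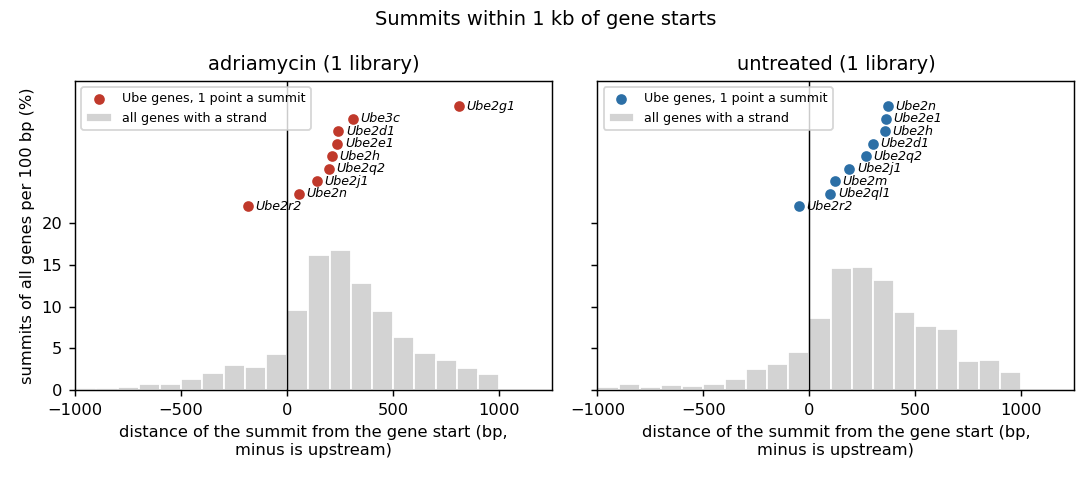
Distance of each summit within 1 kb of a gene start, in bp and with minus for upstream, at Ube genes (points, stacked in order of distance; their height carries no value) and at all genes with a strand (grey bars, percent of summits per 100 bp), 1 library per panel. The Ube summits lie between -186 and 812 bp with adriamycin and between -49 and 372 bp untreated, and Ube2r2 alone lies upstream in both panels.

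Most of the peaks had a fold below the median of their list. Fold enrichment, which the authors' peak caller computes at the summit relative to the local background, was 3.75 to 6.90 at the 17 adriamycin peaks of Ube genes (median 4.66, against 5.10 for the whole list) and 3.47 to 6.52 at the 13 untreated peaks (median 4.24, against 5.16). These folds rank peaks within a list and are not scaled between libraries. In the adriamycin list 6 of 17 Ube peaks had a fold at or above the median of the list, and in the untreated list 2 of 13. Pileup, the number of fragments over the summit as recovered from the deposited values, was 8 to 20 with adriamycin and 11 to 23 untreated. Local background at these peaks was 1.27 to 3.76 times the genome-wide value with adriamycin and 1.33 to 2.55 times untreated, all under the limit of 5 times used for high background. The lists carry no input profile, and none was used here.

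**Figure D3:**
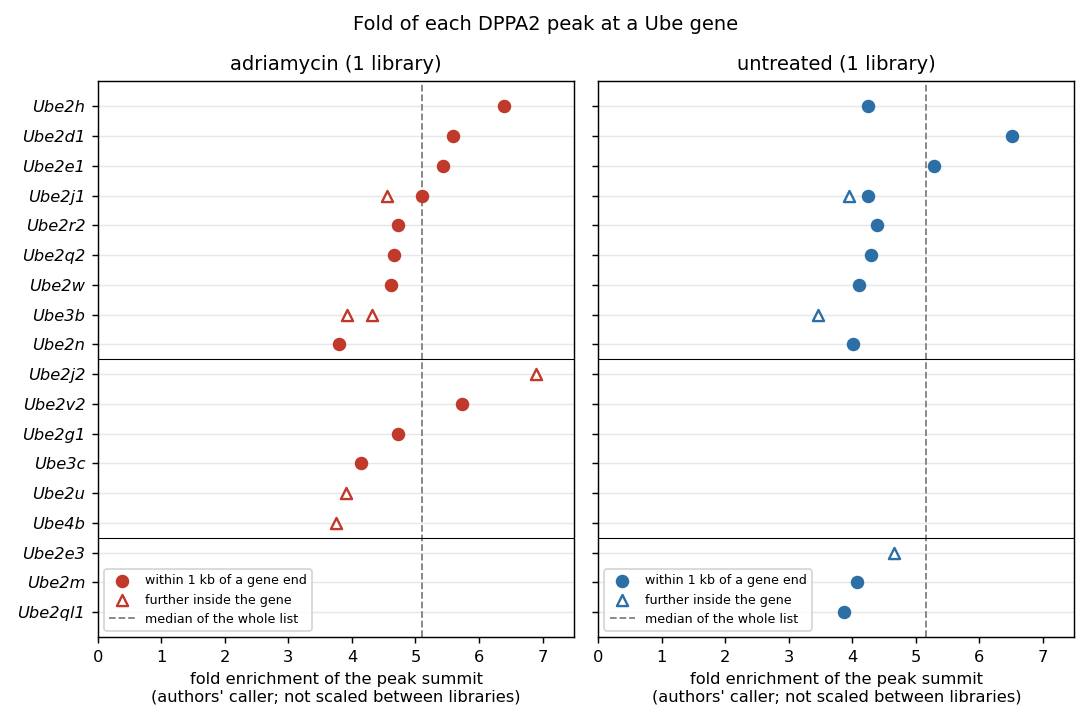
Fold enrichment of every peak at a Ube gene in the adriamycin library (left) and the untreated library (right), with filled circles for summits within 1 kb of a gene end, open triangles for summits further inside and a dashed line at the median of the whole list. The rows run from the 9 genes with a peak in both lists at the top to those in the adriamycin list alone and in the untreated list alone. Most points lie left of the dashed line, which Ube2h, Ube2d1, Ube2e1, Ube2v2 and Ube2j2 pass and Ube2j1 meets with adriamycin, and which Ube2d1 and Ube2e1 pass untreated.

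Among E2 genes of the UBE2D and UBE2E class, which work with a broad range of RING ligases, Ube2d1 and Ube2e1 had the highest folds in both lists. Of the 10 genes of the class, 3 had a summit at an end or inside with adriamycin and 4 untreated, beside 30.2% and 13.2% of all genes. Ube2d1 (chromosome 10, 71254980 to 71285384, minus strand) encodes an E2 that serves many RING ligases, MDM2 among them. Its adriamycin peak at 71284945 to 71285338 had a fold of 5.59 and 16 fragments over its summit (95% interval 9.15 to 26.0), and its untreated peak at 71284890 to 71285394 had a fold of 6.52 and 23 fragments (14.6 to 34.5). It ranked within the strongest 36.7% of the adriamycin list and the strongest 20.1% of the untreated list, where it was the highest of all Ube peaks. The peaks covered 126 and 182 bases of the promoter window shown above, and the summits lay 120 and 178 bp downstream of its listed start.

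Ube2e1 (chromosome 14, 18282726 to 18332004, minus strand) had a fold of 5.43 and 13 fragments (6.92 to 22.2) with adriamycin, at 18331580 to 18331816. In the untreated list the fold was 5.28 and the pileup 14 (7.65 to 23.5), at 18331544 to 18331781. These peaks were close to the middle of their lists, within the strongest 40.1% and 46.8%. Ube2w, whose product attaches ubiquitin to the amino terminus of proteins (chromosome 1, 16540788 to 16619460), had folds of 4.61 with adriamycin and 4.11 untreated, and its summits held 12 (6.20 to 21.0) and 11 (5.49 to 19.7) fragments. Ube2e3 (chromosome 2, 78868236 to 78928786) had 1 peak, called in the untreated list at 78869386 to 78869656, whose fold was 4.65 with 11 fragments (5.49 to 19.7), and its nearest adriamycin summit was 252635 bp from it. The other 6 genes of the class, Ube2d2a, Ube2d2b, Ube2d3, Ube2e2, Ube2dnl1 and Ube2dnl2, had no summit in either list. Ube2e2, at 321 kb the longest Ube gene, had its nearest summit 241796 bp (adriamycin) and 241919 bp (untreated) from an end.

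Of the 6 E2 genes listed for DNA damage and the cell cycle, 1 had a peak at an end or inside in each list, beside 30.2% of all genes with adriamycin and 13.2% untreated. Ube2n (chromosome 10, 95515162 to 95545658, plus strand) encodes the E2 that builds signalling chains, rather than degradation chains, with a UBE2V partner. It had a fold of 3.80 and 11 fragments (5.49 to 19.7) with adriamycin at 95515100 to 95515602, and a fold of 4.01 and 12 fragments (6.20 to 21.0) untreated at 95515366 to 95515716. Both were weak for their lists, where 93.4% of adriamycin peaks and 90.3% of untreated peaks ranked as high or higher. The peaks overlapped over 237 bp while their summits were 318 bp apart, the widest gap among shared Ube peaks. No summit lay in or within 1 kb of Ube2a and Ube2b, which encode the mouse RAD6 enzymes of postreplication repair, Ube2c and Ube2s, the E2 genes of the anaphase-promoting complex, or Ube2t, which serves the Fanconi anemia pathway. Their nearest adriamycin summits lay between 9482 bp (Ube2t) and 222897 bp (Ube2a) from an end, and their nearest untreated summits between 9447 bp (Ube2t) and 222913 bp (Ube2a).

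The 2 E2 variants, which lack the catalytic cysteine and pair with UBE2N, had 1 peak in all. At an end this was 1 of 2 with adriamycin and 0 untreated, beside 16.0% and 5.78% of all genes. Ube2v2 (chromosome 16, 15550986 to 15594518) had a peak in the adriamycin list, at 15594200 to 15594505, 159 bp from its higher-coordinate end, with a fold of 5.73 and 14 fragments (7.65 to 23.5). The nearest untreated summit was 152455 bp from it. Ube2v1 had none in either list.

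E2 genes of the endoplasmic reticulum, whose products help degrade misfolded proteins of that compartment, had a peak at an end or inside at 3 of 4 members with adriamycin and at 1 of 4 untreated, beside 30.2% and 13.2% of all genes. Ube2j1 (chromosome 4, 33031380 to 33052367, plus strand) encodes a membrane-anchored E2 and was the one Ube gene with 2 peaks shared by both lists. At its start the adriamycin peak at 33031436 to 33031809 had a fold of 5.10 and 14 fragments (7.65 to 23.5), and the untreated peak at 33031424 to 33031638 had a fold of 4.24 and 13 fragments (6.92 to 22.2). About 18 kb further on, at 33049670 to 33050029 with adriamycin and 33049790 to 33049994 untreated, the folds were 4.55 and 3.95 and the pileup was 11 (5.49 to 19.7) in both. The start summits also lay within 1 kb of an end of the noncoding gene 4933421O10Rik.

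Ube2j2 (chromosome 4, 155943813 to 155959604, plus strand), a second membrane-anchored E2 gene, had the highest fold of any Ube peak with adriamycin. The peak at 155950495 to 155950796, 6790 bp into the gene, had a fold of 6.90 and 19 fragments (11.4 to 29.7), within the strongest 16.5% of the list. The nearest untreated summit was 59083 bp from it. Ube2g1 (chromosome 11, 72607261 to 72686481, plus strand) had an adriamycin peak at 72607810 to 72608146 whose fold was 4.72 with 14 fragments (7.65 to 23.5), and its nearest untreated summit was 21430 bp from it. Ube2g2 had no summit in either list.

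Of 10 other ubiquitin E2 genes, Ube2h, Ube2q2 and Ube2r2 had a start summit in both lists, beside 4.51% of all genes with an end summit in both. Ube2h (chromosome 6, 30211289 to 30304539, minus strand), whose product serves the GID/CTLH ligase, had the highest fold of any gene-end Ube peak with adriamycin. The fold was 6.39 with 16 fragments (9.15 to 26.0) at 30304061 to 30304525, against a fold of 4.25 and 12 fragments (6.20 to 21.0) untreated at 30304115 to 30304332. The peak stood within the strongest 22.5% of the adriamycin list and the strongest 82.7% of the untreated list. The intervals of the 2 pileups overlap. Its summits also lay within 1 kb of an end of the noncoding gene 1700095J07Rik.

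Ube2r2 (chromosome 4, 41136021 to 41193370, plus strand), a relative of Cdc34 that works with cullin ligases, had a fold of 4.73 and 13 fragments (6.92 to 22.2) with adriamycin at 41135757 to 41136202, and a fold of 4.39 and 12 fragments (6.20 to 21.0) untreated at 41135907 to 41136140. The adriamycin peak covered the whole promoter window of 300 bases and the untreated peak 164 of them. Ube2q2 (chromosome 9, 55149369 to 55207529, plus strand) had folds of 4.66 with adriamycin and 4.29 untreated, its summits held 14 (7.65 to 23.5) and 13 (6.92 to 22.2) fragments, and its peaks lay at 55149371 to 55149751 with adriamycin and 55149495 to 55149694 untreated. These pairs differ by 1 fragment each.

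Ube2ql1 (chromosome 13, 69702832 to 69739897, minus strand) had a weak untreated peak, whose fold was 3.87, with 12 fragments (6.20 to 21.0) at 69739760 to 69740081, and the nearest adriamycin summit lay 90754 bp from an end of the gene. Ube2u (chromosome 4, 100478867 to 100550145, plus strand) had a peak 20042 bp into the gene in the adriamycin list, with a fold of 3.91 and 8 fragments (3.45 to 15.8), the lowest pileup of all Ube peaks. Ube2k, Ube2l3, Ube2o, Ube2q1 and Ube2z had no summit in either list.

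Among the E2 genes for ubiquitin-like proteins, Ube2m had a peak, and Ube2f and Ube2l6 had none. At an end this was 0 of 4 with adriamycin and 1 untreated, beside 16.0% and 5.78% of all genes. UBE2M loads NEDD8, the modifier that switches on cullin ligases, and UBE2F does so too, while UBE2L6 loads ISG15. The Ube2m peak (chromosome 7, gene 13035120 to 13038275, minus strand) was called untreated, at 13037801 to 13038290, and its fold was 4.08 with 14 fragments (7.65 to 23.5). The nearest adriamycin summit lay 5224 bp from it.

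Of 6 E3 genes 1 had an end summit with adriamycin (Ube3c) and 0 untreated, beside 16.0% and 5.78% of all genes, so the count is near the background. Of 36 E2 genes 10 had one with adriamycin and 10 untreated, and the difference between the classes was not tested. Ube3c (chromosome 5, 29569242 to 29676077, plus strand), a HECT ligase gene whose product acts at the proteasome, had a peak at 29569496 to 29569695 in the adriamycin list, 310 bp into the gene, with a fold of 4.14 and 10 fragments (4.80 to 18.4). The nearest untreated summit was 213759 bp from it.

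Ube3b (chromosome 5, 114380517 to 114421169, plus strand), another HECT ligase gene, had summits inside the gene in both lists that did not overlap. With adriamycin the peaks lay at 114402505 to 114402853, with a fold of 4.32 and 20 fragments (12.2 to 30.9), and at 114411043 to 114411274, with a fold of 3.93 and 18 fragments (10.7 to 28.4). The untreated peak lay at 114401298 to 114401587, with a fold of 3.47 and 13 fragments (6.92 to 22.2), 1248 bp from the nearer adriamycin summit. Local background there was the highest among Ube peaks, 3.76 and 3.74 times the genome-wide value with adriamycin and 2.55 times untreated.

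Ube4b (chromosome 4, 149328416 to 149428161, minus strand), which encodes a U-box ligase that extends chains and acts on p53 together with MDM2, had a peak in the adriamycin list at 149329567 to 149329889, 1282 bp from its lower-coordinate end and 98463 bp from its start. The fold of 3.75 was the lowest of the adriamycin Ube peaks, with 11 fragments (5.49 to 19.7). No summit was called at Ube3a, the imprinted ligase gene of Angelman syndrome, at Ube4a or at Ube2cbp in either list. The nearest adriamycin and untreated summits were 83195 and 161303 bp from an end of Ube3a and 43929 and 178706 bp from an end of Ube4a.

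No pair of peaks that overlapped between the lists differed in pileup beyond counting error. There were 9 such pairs at 8 Ube genes, and their summits were 34 to 318 bp apart (median 71 bp, beside 65 bp over 5574 shared pairs genome-wide). Scaled to each library's genome-wide background of 1.03 fragments with adriamycin and 1.19 untreated, the pileup ratio of adriamycin over untreated was 0.807 to 1.55, with a median of 1.25. It was above 1 in 8 of 9 pairs and below it at Ube2d1, at 0.807 (0.399 to 1.60). The highest ratio was that of Ube2h, at 1.55 (0.687 to 3.58). The 95% interval, which covers counting error only, included 1 in every pair, so at 11 to 23 fragments a difference was not detectable. Over all shared pairs the median ratio was 1.31 (quartiles 1.07 and 1.58), and 81.3% were above 1.

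**Figure D4:**
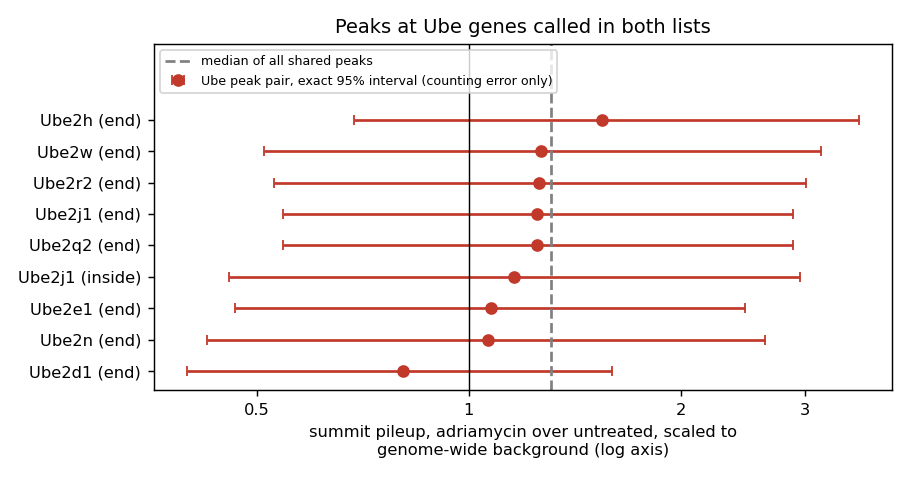
Ratio of summit pileup, adriamycin over untreated and scaled to the genome-wide background of each library, on a log axis for the 9 peak pairs at Ube genes called in both lists, with exact 95% intervals that cover counting error only. All 9 intervals include 1, the points run from 0.807 (Ube2d1) to 1.55 (Ube2h), and the dashed line marks 1.31, the median of all shared pairs.

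Base composition of the promoters was not used to choose the genes. A promoter entry was present for 35 Ube genes, 11 with a summit within 1 kb of an end in either list and 24 without. The 300 bp window is narrower than that limit. Peaks overlapped the windows of 9 of the 11 genes, all but Ube2g1 and Ube3c, and 2 summits, both at Ube2r2, lay within a window. The promoters of the 11 genes held 21 to 53 CpGs in 300 bp (median 33) at a GC content of 56.0 to 81.7% (median 72.7%). The 24 others held 1 to 44 (median 22.5) at 38.7 to 77.3% GC (median 62.0%), and the ranges overlap. All 17492 promoters had a median of 13 CpGs (quartiles 4 and 24) and 56.3% GC. Of the promoters of the 11 genes with an end summit 10 were at or above the upper quartile of all promoters, Ube2h with 21 CpGs being the exception, and of the 24 others 11 were. In the class of over 24 CpGs, which holds 21 Ube genes, 8 had a start summit with adriamycin, beside 29.8% of all genes of that class, and 8 untreated, beside 10.8%. The GC box GGGCGG, which contains a CpG, was found on either strand in 10 of the 11 promoters of genes with an end summit and in 25 of 35 Ube promoters, beside 46.3% of all promoters. The CCAAT box, searched as CCAAT on both strands, was in 1 of the 11, Ube2e1, and in 11 of 35, beside 39.2%. The letters TATAAA were in 0 of the 11 and 3 of 35, beside 13.3%, and the E-box CACGTG in 0 of the 11 and 4 of 35, beside 7.91%.

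**Figure D5:**
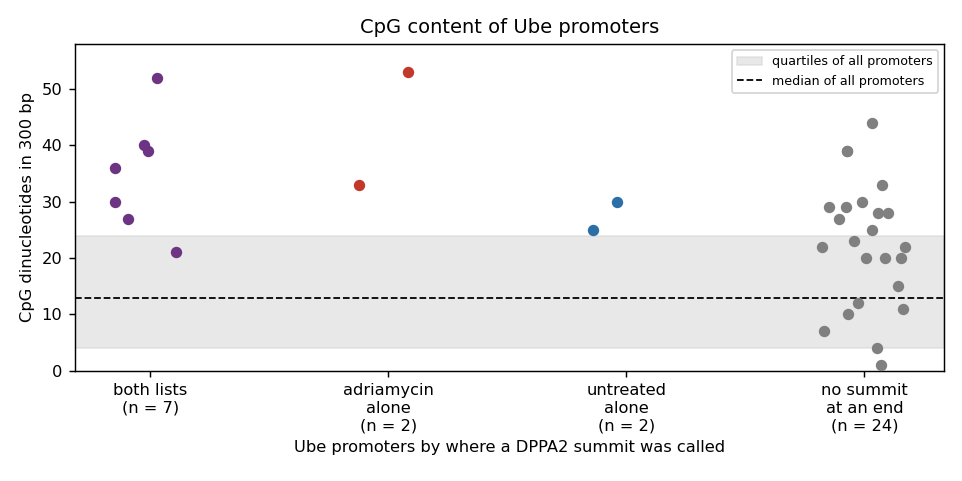
CpG dinucleotides in the 300 bp promoter window of 35 Ube genes, 1 point a gene, by whether a DPPA2 summit lay within 1 kb of an end in both lists (7 genes), the adriamycin list alone (2), the untreated list alone (2) or neither (24). The grey band and dashed line give the quartiles (4 and 24) and median (13) of all promoters. Promoters of genes with an end summit lie between 21 and 53, within and above the band, and those without between 1 and 44.

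The other genes of the relay were looked at in the same way. Of 11 E1 genes, 3 had an end summit with adriamycin and 3 untreated, with Sae1, a subunit of the SUMO E1, and Nae1, a subunit of the NEDD8 E1, in both lists. Nae1 had folds of 5.37 with adriamycin and 3.47 untreated, and Sae1 folds of 5.04 and 5.23. Uba6, the second E1 gene for ubiquitin, had a fold of 6.99 and 18 fragments (10.7 to 28.4) in the adriamycin list alone. Mocs3 had a summit of 11 fragments (5.49 to 19.7) in the untreated list alone. Uba1, which encodes the main ubiquitin E1, had no summit in either list.

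Of 7 E2 genes not named Ube, 2 had an end summit with adriamycin, Birc6 (fold 4.67) and the autophagy gene Atg3 (fold 4.05), and 0 untreated. Of 18 genes for ubiquitin and its relatives, 2 had an end summit with adriamycin, Sumo2 (fold 4.75) among them, and 0 untreated. Of 23 HECT ligase genes not named Ube, 8 had one with adriamycin and 5 untreated. Hecw2, Itch and Hace1 had an end summit in both lists (3 of 23, beside 4.51% of all genes). Hace1 had folds of 6.34 with adriamycin and 5.88 untreated at its start. Counting summits further inside as well, 5 of 23 were in both lists (beside 11.6%). The backgrounds of 16.0% with adriamycin and 5.78% untreated given above apply to these lists too, without regard to gene length. Several of the HECT genes, Hecw2 and Hace1 among them, are over 100 kb long. Of all genes over 100 kb, 28.6% had an end summit with adriamycin and 10.4% untreated. At an end or inside the shares were 70% and 37.9%. The part played by length in these lists was not tested.

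The counts per list also move with the threshold. The adriamycin list was cut to its 7043 peaks of lowest q, the length of the untreated list. Its count of Ube genes with an end summit was then 3 (beside 5.73% of all genes). The untreated list was left whole by this cut, so its count of 10 (beside 5.78%) could not change. At a fold of at least 5 the counts were 5 and 2 (beside 6.94% and 2.14%), with Ube2d1 and Ube2e1 in both lists.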

How the data were processed

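DPPA2 was measured by ChIP-seq in 1 adriamycin and 1 untreated library, grouped by the sample labels (the treated sample's genotype entry holds its treatment, so its title was used). The build is mm10, and the tools are MACS3 3.0.0b1, Bowtie2 2.5.1, FastQC 0.12.1, deepTools 3.5.1 and SAMtools, per the submitters' processing notes. How peaks were filtered and called, and whether an input served as control, is not given in the sources used here. Peaks were deposited per library. The deposited fold is the authors' ratio of summit over local background, the deposited −log10 p and q belong to the same summit, and the deposited score is −log10 q times 10 without its decimals. The authors' other deposited column is the offset of the summit from the peak start.

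The 19 autosomes, X and Y were analysed (142 adriamycin and 126 untreated peaks lie elsewhere). Read depth is unknown. Summit pileup and local background were recovered by finding the whole number of fragments that gives the deposited fold, with a pseudocount of 1 on both, and −log10 p (Poisson upper tail, within 0.001). This held for 99.9% of adriamycin and 99.8% of untreated peaks. The lowest background recovered was taken as the genome-wide value. Local backgrounds above it were multiples of 0.02 for 99.99% of adriamycin and 99.97% of untreated peaks, as 200 bp fragments counted in 10000 bp windows of the same library would give. Input correction is then absent from the folds, which is read from the values and stated in no source used here. Genes and promoters came from RefSeq for GRCm38.p6, and a gene's start is the end its strand gives. The gene table holds no exons. Ube2cbp was matched to the E3 role through its synonym Ube3d, and Cdc34b had no entry of its own.

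No test between groups was possible with a single library in each. Intervals are exact 95% intervals (Poisson for pileups, conditional binomial for ratios) of counting error only. A summit is by construction the highest point of its peak. Scripts were tested on simulated peaks. The members, gene lists and tests were chosen with earlier results of these data known. Named genes are all members with an end summit, all called in both lists and the 5 highest folds of each list. Ube2u, Ube4b and Ube2cbp were named as well, after their values were seen. The motifs were chosen after the data were seen. Alternatives covered q, fold, list length, window, overlap, high background and scaling. Python 3.11.15, numpy 2.4.6, pandas 2.3.3, scipy 1.17.1 and matplotlib 3.10.9 were used. Some genes of the lists are not reported here.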

Additional observations from a re-analysis of the deposited data

How the results depend on the processing

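Most counts of Ube genes changed by over 1.5 times under stricter peak thresholds and equal list length, settings that keep fewer peaks. The cause of the change was not tested. Under the alternative settings, shares over all genes were computed for each list only. The counts in both lists or in a single list alone therefore have no share beside them. At a q of at most 1e-05, 7 of 42 genes had a summit at an end or inside with adriamycin (beside 15.9% of all genes). Untreated there were 2 (beside 6.14%), with 2 genes in both lists and 0 in the untreated list alone. At an end there were 5 and 2 (beside 7.12% and 2.1%), with 2 in both and 0 in the untreated list alone. At a fold of at least 5 there were 6 and 2 at an end or inside (beside 15.5% and 6.25%), with 2 in both and 0 in the untreated list alone. At an end there were 5 and 2 (beside 6.94% and 2.14%), again with 2 in both and 0 in the untreated list alone. With the adriamycin list cut by q to the length of the untreated list, its count at an end or inside was 5 (beside 13.4%). Of these genes 3 were in both lists and 2 in the adriamycin list alone, and 9 were in the untreated list alone. At an end the count with adriamycin was 3 (beside 5.73%), with 2 in both, 1 in the adriamycin list alone and 8 in the untreated list alone. With a window of 2500 bp, 5 genes had an end summit in the adriamycin list alone, in place of 3. Requiring summits within 100 bp left 5 shared peaks in each list, in place of 9. The other 50 values, including every one for a window of 500 bp, for any base of a peak, for leaving out high background, for the added restriction to gene starts (9 and 9 genes) and for the ratio of deposited folds (median 1.08), stayed within 1.5 times the reported count or, for the ratio, within its interval. Some of these 50 values could not move. The untreated list was not shortened by equal list length, and no Ube peak reached the limit of 5 times for high background. No paired analysis was possible because each group has 1 library. The depth of 8 to 23 fragments per Ube summit limits all of these.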
